A study of Mus musculus with 6 samples.

Results

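Tubulin transcripts were examined in RNA sequencing of mouse hippocampus after knockdown of hepaCAM, the cell adhesion molecule of astrocytes encoded by Hepacam. The 10 tubulin genes were taken by symbol from the 29872 genes in the deposited files, and all 10 had rows there. Of these, 6 were grouped as neuron-enriched (Tuba1a, Tuba4a, Tubb2a, Tubb2b, Tubb3 and Tubb4a) and 4 as broadly expressed (Tuba1b, Tubb4b, Tubb5 and Tubg1). Their Ensembl identifiers in the files are, in this order, ENSMUSG00000072235, ENSMUSG00000026202, ENSMUSG00000058672, ENSMUSG00000045136, ENSMUSG00000062380, ENSMUSG00000062591, ENSMUSG00000023004, ENSMUSG00000036752, ENSMUSG00000001525 and ENSMUSG00000035198. The 6 libraries came from C57BL/6 J mice, 3 in each group. In the shHepaCAM group, with the labelled genotype HepaCAM knockdown, adeno-associated virus (AAV) was put into the CA1 field on both sides to deliver a short hairpin RNA against Hepacam. The shControl group has the labelled genotype WT, and the labels do not say whether it received a vector. Age, sex, the time after injection, the viral promoter and the cells it reached are not stated in the labels. RNA was taken from hippocampus, while the injection was aimed at one of its fields. Nothing in the labels says that the libraries are from separate mice; the p-values therefore speak only of library-to-library spread, some or all of it possibly technical.

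Microtubules are hollow polymers of alpha- and beta-tubulin pairs, and gamma-tubulin forms the template from which they grow. They give axons and dendrites their shape and are the tracks for transport along them. Several genes encode alpha- and beta-tubulins that are very alike and differ mostly in the acidic tail at the end of the protein, which projects from the microtubule and is modified by enzymes. Cells also lower tubulin messages when free tubulin accumulates: TTC5 recognises the first residues of the growing tubulin chain on the ribosome, and the message is then degraded.

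The coding sequences show how closely these genes resemble each other, which bears on how far reads can be assigned to one gene. Coding ends are given below as the last 60 bases with the stop codon, from the GENCODE M21 transcripts (build GRCm38), with in-frame GAA and GAG codons, which encode glutamate, in capitals. They are shown for 5 of the genes because they encode the acidic tails and include a pair of close copies, Tubb2a and Tubb2b.
Tuba4a: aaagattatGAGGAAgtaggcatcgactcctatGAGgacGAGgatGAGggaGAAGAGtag
Tubb2a: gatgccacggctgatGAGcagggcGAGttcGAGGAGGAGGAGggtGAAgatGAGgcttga
Tubb2b: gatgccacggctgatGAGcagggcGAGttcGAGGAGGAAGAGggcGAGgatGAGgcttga
Tubb3: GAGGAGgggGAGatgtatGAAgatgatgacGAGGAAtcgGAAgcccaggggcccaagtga
Tubb4a: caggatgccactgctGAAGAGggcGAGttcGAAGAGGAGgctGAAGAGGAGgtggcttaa

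Counted from the first of these 60 bases, Tubb2a and Tubb2b differ at 3 of the 60 bases, namely G39A, T45C and A48G, which change 0 residues, and at 47 of 1338 coding bases. The last sense codon of Tuba4a is GAG, so the gene does not encode the terminal tyrosine that tubulin tyrosine ligase adds to alpha-tubulins and the vasohibins remove. The glutamate codons number 7 in the end of Tuba4a, 7 in that of Tubb3 and 9 in that of Tubb4a, against 2 in that of Tubg1, the gamma-tubulin gene. The coding starts, shown because they encode the residues read in the decay of tubulin messages, are given for 1 alpha and 1 beta gene, with the first 4 codons in capitals.
Tuba4a start: ATGCGCGAGTGCatt
Tubb3 start: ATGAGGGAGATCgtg

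Windows of the coding sequence were searched in the transcripts of every other annotated gene, on both strands. For Tubb3 100% of 50-base coding windows occurred in no other gene, and the share was 99.7% for Tubb4a, 99.9% for Tubb5 and 97.6% for Tuba4a. It was 81.1% for Tubg1, which shares windows with Tubg2. The unique share was 39.95% for Tubb2a, 34.9% for Tubb2b and 38.9% for Tubb4b, the last sharing with pseudogene copies. Only 6.12% of Tuba1a and 4.36% of Tuba1b windows were unique, and with 100-base windows these shares were 18.5% and 9.07%. Neither the read length nor the handling of reads that fit several genes is stated in the labels, so the split between Tuba1a and Tuba1b, and between Tubb2a and Tubb2b, is uncertain. Beyond its coding sequence, Tuba4a shares transcript sequence with Stk16, a kinase gene, and 51.2% of all its 50-base transcript windows were unique. Whether the counting used strand is not stated either, so reads of these 2 genes may not be separable outside the coding sequence.

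**Figure D1:**
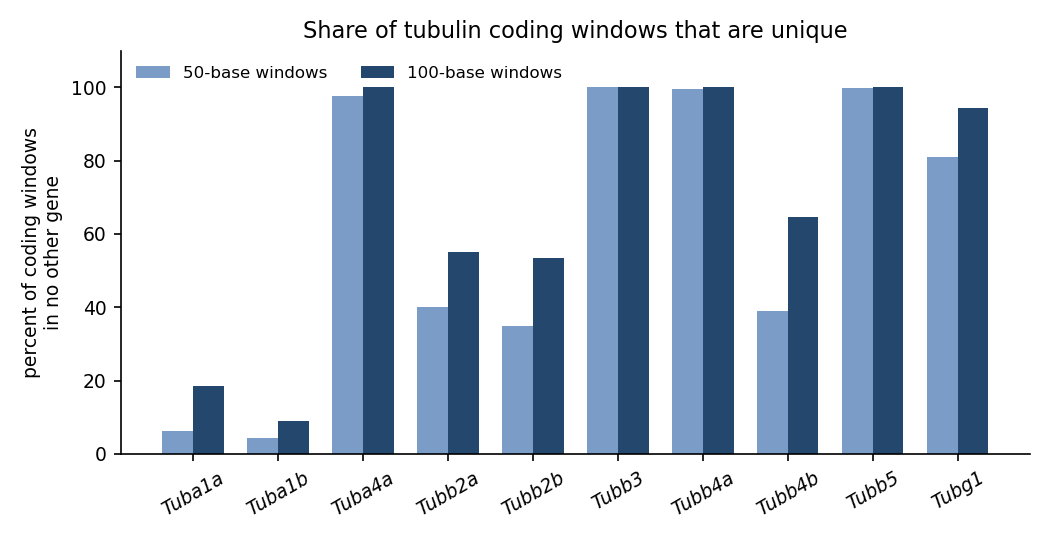
Bars give the percent of windows of the coding sequence (y axis, 0 to 100) that occur in no other annotated gene, for 50-base and 100-base windows and each of the 10 tubulins (x axis). Tubb3, Tubb4a and Tubb5 stand at 99.7% or above, while Tuba1a and Tuba1b lie at 18.5% or below.

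The deposited values are RPKM, reads scaled to gene length and to library size. Depth worked out from them was 14903198 to 17341842 reads per library, of which 45159 to 63421 were in the 10 tubulins together. Hepacam was 36.3% lower in the shHepaCAM libraries, at 20.9 to 24.4 against 33.4 to 37.3 RPKM (change -0.63, limma adjusted p = 0.00924; 0.0526 without shControl replicate 3). In the fit across all genes, limma on log2(RPKM + 1), 842 of 13864 genes tested (6.07%) passed an adjusted p of 0.05, 587 higher and 255 lower; this split was 390 and 341 after quantile normalization, 402 and 282 after centring libraries on their median gene, and 378 and 384 with a trend in gene length and GC removed. Ttr, the leading transcript of choroid plexus, ran from 25.5 to 4192 RPKM, lowest in shControl replicate 1 and shHepaCAM replicate 3, so that it separated libraries within each group.

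Of the 10 tubulin messages, 5 fell after knockdown and 0 rose: Tuba1a, Tuba4a, Tubb2a and Tubb3 among the 6 neuron-enriched genes and Tuba1b among the 4 broadly expressed ones. The change was below 0 for all 10. Over all genes tested, 1.84% were called lower, and among the 2836 genes at or above the mean level of Tubg1, 4.27%. The median change was -0.41 for the neuron-enriched and -0.27 for the broadly expressed genes, against 0.05 over all genes tested. By summed RPKM the order of the classes was the other way. The neuron-enriched sum was 18.2% lower (25.1% without Tubb4a) and the broadly expressed sum 23.9% lower. Both comparisons depend on the uncertain split of reads between Tuba1a and Tuba1b. In 7 of 10 tubulins every shHepaCAM library lay below every shControl library, which held for 10.7% of all genes tested. An exact two-sided permutation test on RPKM gave p = 0.1 for each of these 7, the smallest p that 3 libraries against 3 allow.

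**Figure D2:**
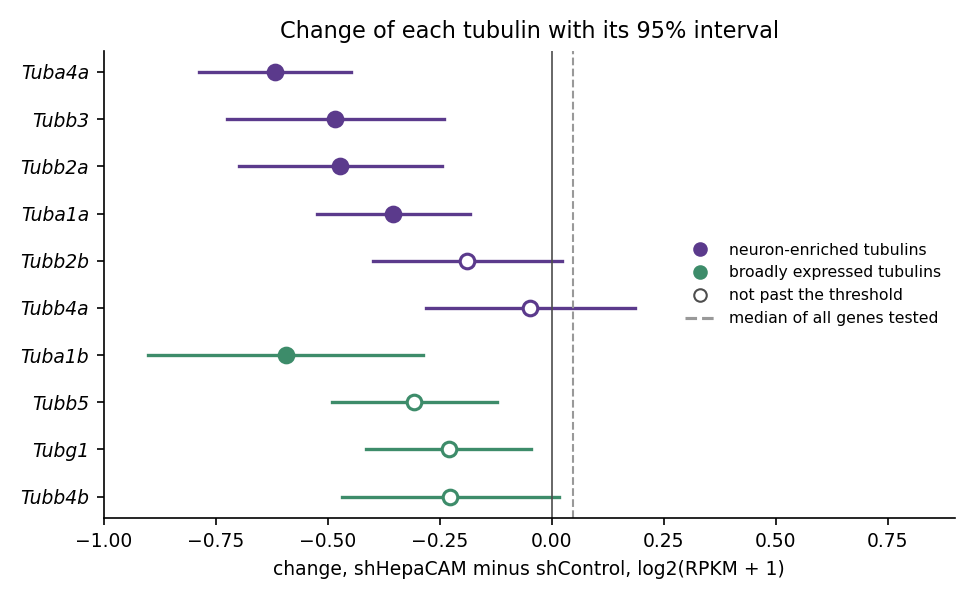
Points show the change of each tubulin (x axis, shHepaCAM minus shControl on the log2(RPKM + 1) scale), with lines for the 95% interval of the limma fit, not adjusted for multiple tests; filled points passed the threshold, and colour gives the class. The dashed line is the median of all genes tested. The 5 filled points lie between -0.62 and -0.35, and Tubb4a sits nearest to 0.

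By level, expressed per length, Tubb4a was the highest in the control libraries at 419 RPKM on average, followed by Tuba1a at 338, Tubb2a at 288 and Tuba1b at 178. Tubb5, Tubb3, Tuba4a, Tubb4b and Tubb2b followed at 124, 115, 105, 90.7 and 74.4 RPKM, and Tubg1 was the lowest at 20.3 RPKM. The ranges of neighbours in this order did not overlap between the control libraries. The order also rests on the gene-model lengths, at 3701 bases for Tuba4a, 3327 for Tubb5 and 2088 for Tubb4b. The annotated transcripts used for their coding sequences have 2840, 2649 and 1598 bases, while Tubb3 has 1868 in both. With other lengths, neighbours could change places. In the knockdown libraries Tubb4a, Tuba1a, Tubb2a and Tuba1b kept the first 4 places. There, each neighbouring pair from Tuba1b through Tubb5, Tubb3, Tubb4b and Tuba4a to Tubb2b overlapped in range, so the order within that run was not resolved.

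**Figure D3:**
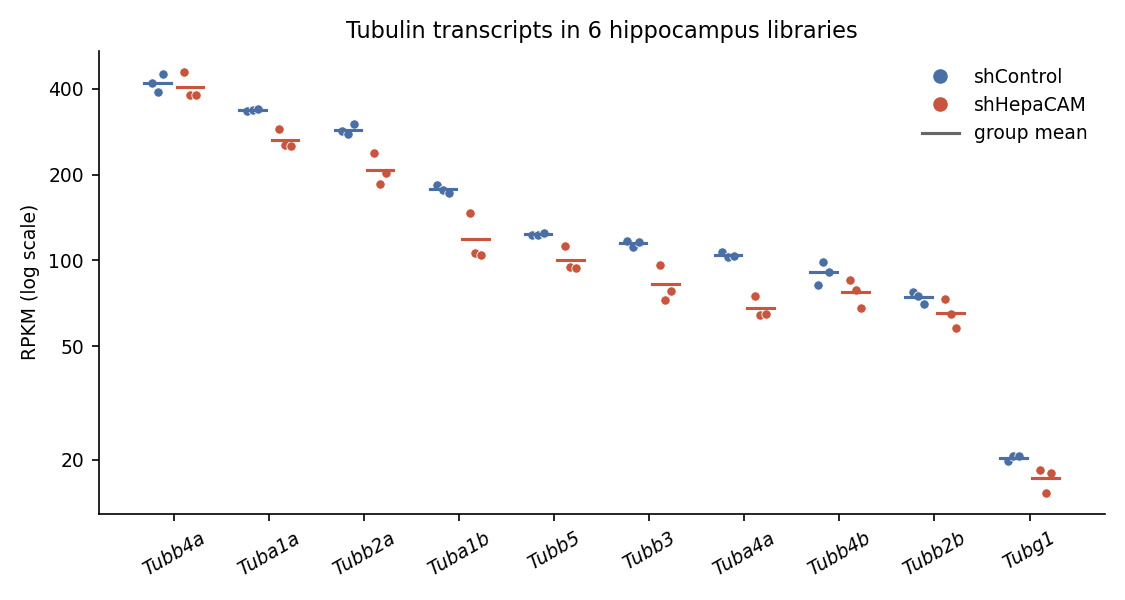
Each point is 1 library and each line a group mean, in RPKM on a log axis, with the 10 tubulins in the order of their control level. The shHepaCAM points lie below all shControl points for 7 genes and overlap with them for Tubb4a, Tubb4b and Tubb2b.

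Tuba4a, an alpha-tubulin of mature neurons, had the smallest adjusted p of the 10. Its control libraries, replicates 1 to 3, gave 107, 103 and 104 RPKM, and the knockdown libraries in the same order gave 74.9, 64.2 and 64.8 RPKM. All knockdown libraries were low, replicate 1 the least, and the groups were far apart. The means were 105 ± 2.38 and 68.0 ± 6.00 RPKM (SD, n = 3 each), 35.0% lower, and Tuba4a fell by 0.62 on the log2 scale (SE 0.07, limma adjusted p = 0.00924). Stk16 was at 9.82 ± 0.24 and 8.79 ± 0.63 RPKM (SD, n = 3 each). Without shControl replicate 3 the adjusted p of Tuba4a was 0.0502, with a change of -0.62.

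Tuba1a, the main alpha-tubulin of developing and mature neurons, was at 336, 338 and 341 RPKM in the control libraries and at 289, 254 and 252 RPKM in the knockdown libraries. The control values lay within a narrow band and all knockdown values under it. The means were 338 ± 2.84 and 265 ± 21.0 RPKM (SD, n = 3 each), and the gene fell by 0.35 on the log2 scale (SE 0.07, limma adjusted p = 0.0389). Because its reads can hardly be told from those of Tuba1b and Tuba1c, the sum of the 3 genes is given as well. It was 525, 526 and 523 RPKM in the control and 444, 365 and 361 RPKM in the knockdown libraries, 25.7% lower on average. As a share of all reads, which does not depend on how reads were split among the 3, it was 26.1% lower.

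Tubb3, the beta-tubulin used as a marker of neurons, has no coding window in common with another gene. The control libraries gave 117, 111 and 116 RPKM, and the knockdown libraries 96.4, 72.6 and 78.1 RPKM. The groups did not overlap, and shHepaCAM replicate 1 was again nearest to the controls. Means of 115 ± 3.01 and 82.4 ± 12.5 RPKM (SD, n = 3 each) corresponded to -0.48 on the log2 scale (SE 0.10, limma adjusted p = 0.0424).

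Tubb2a, an abundant beta-tubulin of neurons, was at 284, 279 and 301 RPKM in the control and 238, 186 and 202 RPKM in the knockdown libraries. All knockdown libraries were below the controls, and the gene fell by 0.47 on the log2 scale (SE 0.10, limma adjusted p = 0.0389). Tubb2b, its close copy and a beta-tubulin of migrating young neurons, was at 77.6, 75.3 and 70.3 RPKM in the control and 73.1, 65.0 and 58.1 RPKM in the knockdown libraries. Here the groups overlapped through shHepaCAM replicate 1, and the change was -0.19 (95% interval -0.40 to 0.02, limma adjusted p = 0.252). The sum of both genes went from 362 ± 8.63 to 274 ± 32.4 RPKM (SD, n = 3 each), 24.4% lower. Because the gene models differ in length, at 1610 and 2294 bases, this sum depends on how reads were split between them; their summed share of all reads does not, and was 23.4% lower.

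Tubb4a, a beta-tubulin of neurons and of myelinating oligodendrocytes, was the most abundant tubulin and had the change nearest to 0. Its control values were 418, 389 and 450 RPKM, and its knockdown values 459, 379 and 381 RPKM. The highest of all 6 was a knockdown library, and the groups overlapped. The log2 change was -0.05 (95% interval -0.28 to 0.19, limma adjusted p = 0.805), so the interval includes a fall of the size seen in Tubb2b and leaves out the estimates for Tuba1a, Tubb2a and Tubb3. No test of the difference between genes was made.

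Among the broadly expressed genes, Tuba1b was at 184, 177 and 173 RPKM in the control and 147, 106 and 104 RPKM in the knockdown libraries. Replicates 2 and 3 of the knockdown group were much lower than replicate 1, and all 3 were below the controls. The gene fell by 0.59 on the log2 scale (SE 0.13, limma adjusted p = 0.0456), from 178 ± 5.83 to 119 ± 24.2 RPKM (SD, n = 3 each). Tubb5, a beta-tubulin of most cell types, was at 123, 123 and 125 RPKM in the control and 112, 94.9 and 93.9 RPKM in the knockdown libraries. Its groups did not overlap, and the change of -0.31 (SE 0.08) had a limma adjusted p of 0.066.

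Tubb4b, found in most cells and in cilia, was at 81.8, 99.0 and 91.3 RPKM in the control and 85.5, 78.8 and 68.2 RPKM in the knockdown libraries, with overlap between the groups. Its change was -0.23 (95% interval -0.47 to 0.02, limma adjusted p = 0.232). Tubg1, the gamma-tubulin of centrosomes and other nucleation sites, was at 19.7, 20.6 and 20.6 RPKM in the control and 18.4, 15.3 and 17.9 RPKM in the knockdown libraries. All knockdown libraries were lower, and the change was -0.23 (SE 0.08, limma adjusted p = 0.132).

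These calls were close to the threshold. Tuba1a, Tuba1b, Tubb2a and Tubb3 each lost the call when any 1 library other than shHepaCAM replicate 1 was left out, with adjusted p-values of 0.0653 to 0.148 and changes of -0.62 to -0.32. Without shHepaCAM replicate 1, Tubb5 passed as well (change -0.39, adjusted p = 0.0189). None of the 10 passed without both shControl replicate 1 and shHepaCAM replicate 3, the libraries low in choroid plexus transcripts. The changes were then -0.57 for Tuba4a and -0.44 for Tubb3, and in this limma fit 104 genes were called in all. Hepacam did not pass in that fit either (change -0.54, limma adjusted p = 0.0695).

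Isotype shares of summed RPKM are given as a description, with no test. Tubb4a made up 38.0%, 36.1% and 39.0% of the beta-tubulin RPKM in the control libraries and 43.1%, 43.3% and 43.2% in the knockdown libraries. Every knockdown library was above every control library, and the 3 knockdown libraries were nearly alike. Tubb2a went the other way, from 25.9% ± 0.14 to 22.2% ± 0.89 (SD, n = 3 each), as did Tubb3, from 10.3% ± 0.26 to 8.74% ± 0.40 (SD, n = 3 each). Tubb2b and Tubb4b kept overlapping shares, at 6.71% and 6.96% and at 8.18% and 8.26%. The shares of Tubb2a and Tubb2b depend on the uncertain split of reads between these genes. Shares do not depend on the scaling between libraries, but a share can be higher because other isotypes are lower.

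Within the alpha-tubulins, Tuba1a made up 54.5% ± 0.89 of the RPKM in the control and 58.8% ± 1.89 in the knockdown libraries (SD, n = 3 each). Tuba4a went from 16.8% ± 0.24 to 15.1% ± 0.38 (SD, n = 3 each), with no overlap between the groups, and Tuba1b from 28.7% to 26.2%, with overlap. Because the split of reads between Tuba1a and Tuba1b is uncertain, their shares are uncertain too. The size of the Tuba4a share depends on its gene-model length of 3701 bases, longer than its transcript of 2840. Summed alpha-tubulin RPKM was 27.2% lower in the knockdown libraries and summed beta-tubulin RPKM 15.3% lower. The ratio of alpha to beta was 0.569, 0.574 and 0.535 in the control and 0.480, 0.484 and 0.478 in the knockdown libraries, lower in all 3. Without Tubb4a the beta sum was 22.8% lower.

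**Figure D4:**
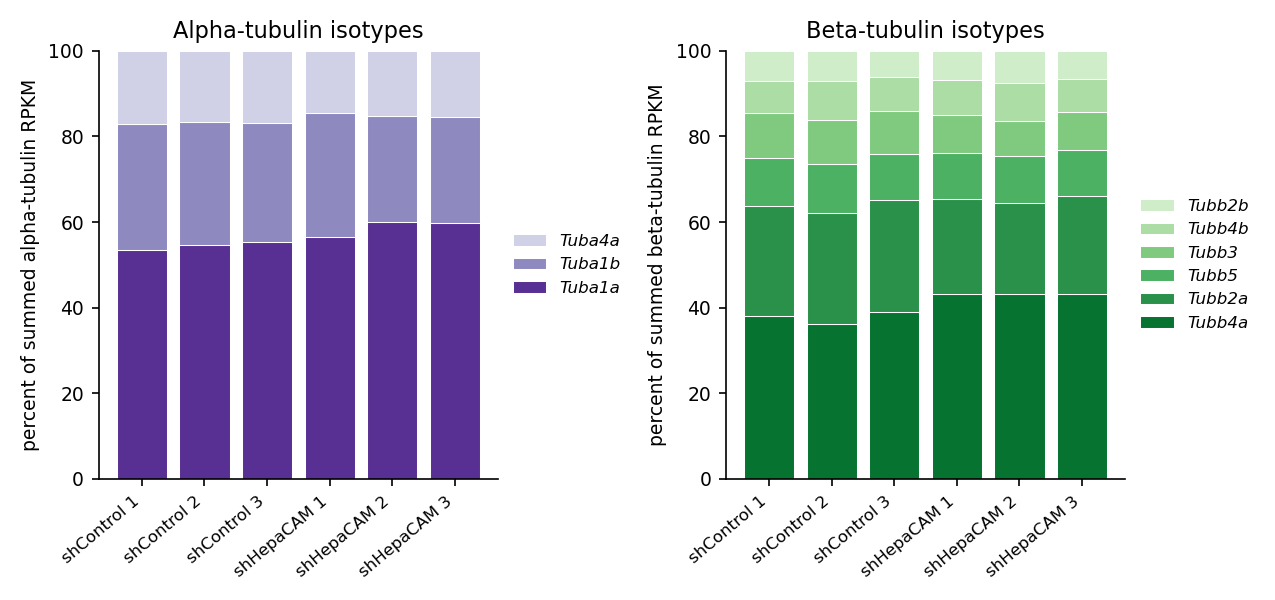
Stacked bars give each isotype as a percent of the summed alpha-tubulin (left) or beta-tubulin (right) RPKM, 1 bar per library. The Tubb4a segment reaches 43.1% to 43.3% in the shHepaCAM bars and 36.1% to 39.0% in the shControl bars.

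Of the other tubulin genes, 5 of 9 in the files were tested. Tubg2, the second gamma-tubulin, which is expressed in brain, fell: it was at 26.6, 25.0 and 24.3 RPKM in the control and 18.0, 17.8 and 16.9 RPKM in the knockdown libraries, or -0.50 on the log2 scale (SE 0.06, limma adjusted p = 0.00924). The groups were well apart, and Tubg2 kept the call with any 1 library left out (adjusted p of 0.0158 to 0.0476). It did not without shControl replicate 1 and shHepaCAM replicate 3 together (adjusted p = 0.078). Tuba1c, Tubd1, Tuba8 and Tubb6 did not pass, with changes of -0.50, -0.20, -0.17 and 0.15. Tube1, Tuba3a, Tubb1 and Tubal3 lay under the filter.

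Over 8 lists of companion genes, other tubulins included, 129 genes were tested, of which 2 fell (Tubg2 and Map1b) and 2 rose (Kif17 and Kif21b), while 1.84% of all genes tested were lower and 4.23% higher. Of 22 genes for tubulin folding, namely the prefoldins, the CCT chaperonin and the tubulin cofactors, 0 passed in limma, 3 had an unadjusted p under 0.05, and the median change was -0.04; Pfdn1, a prefoldin subunit, had the smallest p (change -0.26, adjusted p = 0.143). Of 10 genes for the decay of tubulin messages, TTC5 and the CCR4-NOT deadenylase among them, 0 passed in limma. In this list 2 had an unadjusted p under 0.05 and the median was 0.00. Cnot3, for a CCR4-NOT subunit, was at 0.28 (limma adjusted p = 0.0907) and Ttc5 itself at -0.06 (adjusted p = 0.705).

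Of 17 tubulin-modifying enzymes tested, 0 passed in limma, 6 had an unadjusted p under 0.05 and the median was 0.05. For all genes tested, the share with an unadjusted p under 0.05 is not reported here. The counts at that cutoff in the lists therefore have no background. Sirt2, a deacetylase abundant in oligodendrocytes, was at 0.28 (limma adjusted p = 0.0551). Sirt2 passed in the fits with a filter at 5 RPKM (adjusted p = 0.0438), on recovered reads (0.0427) and with protein-coding genes only (0.0397). Of 13 genes of the gamma-tubulin ring complex and augmin, 0 passed in limma and 1 had an unadjusted p under 0.05 (median 0.02), with Mzt1, a small subunit, at -0.20 (adjusted p = 0.0752).

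Among 28 structural microtubule-associated proteins, Map1b, which binds microtubules in growing axons, fell from 56.9 ± 1.63 to 46.7 ± 2.01 RPKM (SD, n = 3 each), or -0.28 on the log2 scale (SE 0.06, limma adjusted p = 0.0376), and 0 rose. It lost the call when any 1 library other than shHepaCAM replicate 2 was left out (adjusted p of 0.0654 to 0.15). Of 10 destabilizers and severing enzymes, 0 passed in limma and 4 had an unadjusted p under 0.05. Stmn2, a tubulin-binding protein of growing axons, had the smallest p of these, with a change of -0.82 (SE 0.21, adjusted p = 0.0662), with 45.3, 45.1 and 46.6 RPKM in the control and 34.5, 17.6 and 27.2 RPKM in the knockdown libraries. It passed without shHepaCAM replicate 1 (change -1.03, adjusted p = 0.0277) and without shHepaCAM replicate 2 (change -0.56, adjusted p = 0.0496).

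Of 24 motor genes, the median change was -0.12, 0 fell past the threshold and 2 rose. The change was below 0 for 19 of the 24, and 5 had an unadjusted limma p under 0.05. The median change was 0.05 over all genes tested and 0.00 among those at or above the mean level of Tubg1. All shHepaCAM libraries lay below all shControl libraries for 9 motors and above them for 2. Over all genes tested these shares were 10.7% and 20.9%. The dendritic kinesins Kif17 and Kif21b rose by 0.53 and 0.42 (SE 0.12 and 0.10, limma adjusted p = 0.0456 and 0.049). Kif17 was at 6.29, 7.06 and 7.15 RPKM in the control and 8.53, 11.8 and 10.9 RPKM in the knockdown libraries. Both lost the call when any 1 library other than shHepaCAM replicate 1 was left out (adjusted p of 0.0691 to 0.167), and also under the quantile (0.0597 and 0.0595) and median-gene scalings (0.0574 and 0.0573); Kif17 also did with the length and GC trend removed (0.0621).

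**Figure D5:**
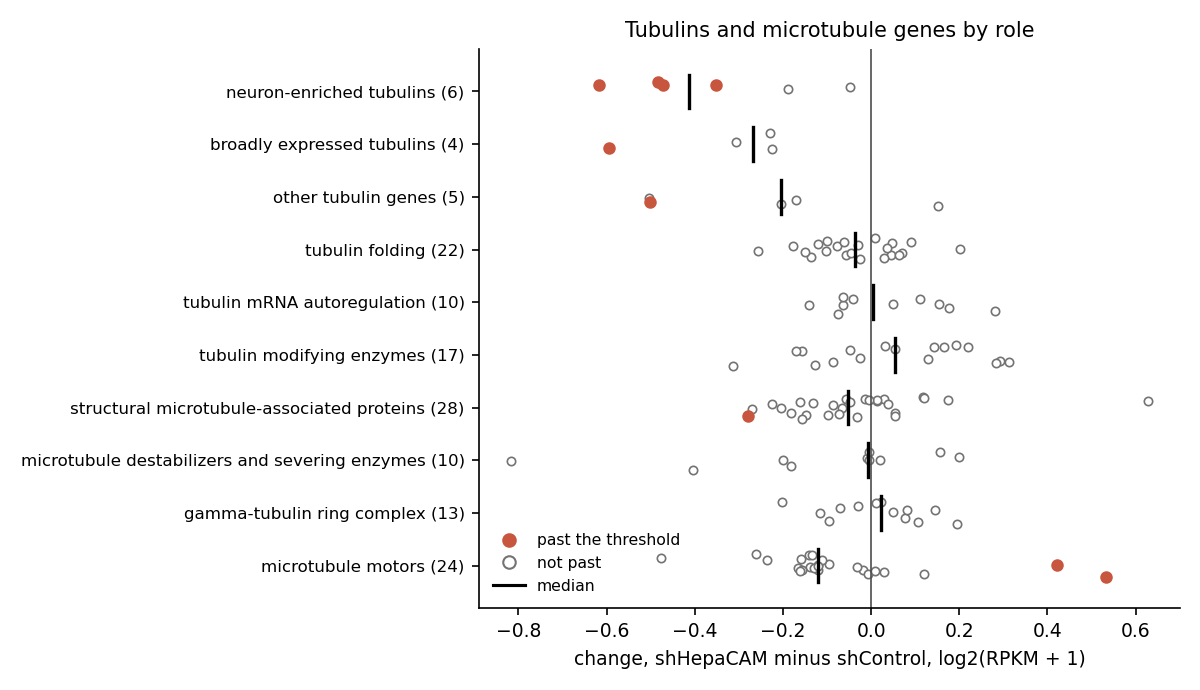
Each point is 1 gene, placed by its change (x axis, shHepaCAM minus shControl, log2(RPKM + 1)), with a row for each list and the number tested in brackets; filled points passed the threshold and black ticks are medians. The 2 tubulin rows at the top have medians of -0.41 and -0.27, while the medians of the rows from tubulin folding down lie between -0.12 and 0.05.

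Markers of the cells that express these genes moved with the groups in part. Of 14 neuron markers, 1 fell past the threshold, 0 rose and the median change was -0.19. The change was below 0 for 11 of the 14, and 6 had an unadjusted limma p under 0.05. Over all genes tested the median change was 0.05, and among those at or above the mean level of Tubg1 it was 0.00. The share of all genes at the unadjusted cutoff is not reported here. In 9 of the 14 markers every shHepaCAM library lay below every shControl library, which held for 10.7% of all genes tested. The summed RPKM of the list was 1779 to 1815 in the control and 1302 to 1647 in the knockdown libraries. Snap25, a protein of synaptic vesicle fusion, was the one past the threshold, lower by 0.70 (limma adjusted p = 0.0441). It lost the call without any 1 of shControl replicates 1, 2 and 3 or shHepaCAM replicate 3 (adjusted p of 0.0758 to 0.144), and also with scaling to the median gene (0.0526) and with the length and GC trend removed (0.0639). The 6 neuron-enriched tubulins came to 75.3%, 72.6% and 76.1% of the summed neuron markers in the control and to 74.7%, 78.4% and 66.1% in the knockdown libraries, with overlap and the highest value in a knockdown library. Without Tubb4a, left out after its values were seen, the control libraries gave 51.8%, 50.8% and 51.3% and the knockdown libraries 46.8%, 49.3% and 41.8%. In bulk tissue, fewer neurons and less RNA per neuron cannot be told apart.

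The other lists differed in direction. Microglia markers were higher, with 5 of 8 past the threshold and 0 lower, against 4.23% of all genes tested called higher. Their summed RPKM was 209 to 252 in the control and 369 to 458 in the knockdown libraries. How these 5 calls depend on single libraries or on the scaling is not reported here. Of the 8 immune cell markers, 2 were tested and Jchain rose, and the summed RPKM went from 1.42 to 2.21 up to 17.4 to 85.1. Jchain averaged 0.63 RPKM in the control and 50.9 in the knockdown libraries, so only its high group brought it over the filter of 1 RPKM. Jchain kept the call with any 1 library left out (adjusted p at most 0.0492). It lost the call in limma-voom on recovered reads (0.0571) and with shControl replicate 1 and shHepaCAM replicate 3 left out together (0.0573). Oligodendrocyte markers, relevant to Tubb4a, had 0 of 8 past the threshold in limma, 1 with an unadjusted p under 0.05 and a median of 0.20, with 916 to 1148 summed RPKM in the control and 949.5 to 1432 in the knockdown libraries. Astrocyte, endothelial and ciliated ependymal markers had 0 past the threshold in limma and 0 with an unadjusted p under 0.05, with medians of 0.13, -0.05 and 0.00. Of 6 immature granule neuron markers tested, Sox4 and Igfbpl1 rose by 0.63 and 0.61 and 0 fell past the threshold, against 4.23% of all genes tested called higher. The change was below 0 for 2 of the 6. Summed RPKM of the list overlapped, at 26.4 to 35.2 in the control and 23.5 to 42.1 in the knockdown libraries. Igfbpl1 averaged 0.86 RPKM in the control and 1.84 in the knockdown libraries, so it met the filter of 1 RPKM through the group where it was high. Sox4 lost the call without any 1 library but shControl replicate 1 (adjusted p of 0.0673 to 0.114), and Igfbpl1 without any 1 but shHepaCAM replicate 1 (0.103 to 0.146). Igfbpl1 also lost it after quantile normalization (0.0791), under median-gene scaling (0.0581) and with the length and GC trend removed (0.0697). The 8 markers of dividing cells were all under the filter and summed to 1.91 to 2.31 RPKM. The part of these cell types in the tubulin changes was not tested.

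Across the 6 libraries, the mean log2(RPKM + 1) of the neuron-enriched tubulins was most closely followed by Prcc, Aacs, Capn5, Ddah1 and Arhgap1 among 4732 protein-coding genes averaging 10 RPKM or more, with Pearson r of 0.998, 0.997, 0.994, 0.994 and 0.991. All these points share the same 6 libraries, and the 5 genes were picked as the highest r of all. Prcc, which encodes a splicing-associated protein, was at 29.9, 29.5 and 30.9 RPKM in the control and 23.9, 17.6 and 17.5 RPKM in the knockdown libraries. Aacs, a cytosolic enzyme that activates acetoacetate for lipid synthesis, was at 14.5, 13.4 and 14.4 RPKM in the control and 11.7, 9.33 and 9.12 RPKM in the knockdown libraries. In both, shHepaCAM replicate 1 lay between the controls and the other 2 knockdown libraries.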

How the data were processed

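The authors' deposited values are RPKM per gene, 1 file per library; per the submitters' processing notes, TopHat2 2.0.12, Bowtie2 2.0.6 and build mm39 were used. No source used here names the read counter, annotation or strand setting. Names, gene classes, exon lengths and coding sequences came from GENCODE M21 (GRCm38), so no coordinate is given. Symbols were found for 29805 of 29872 genes. Whole reads were recovered from the RPKM steps within 0.01 read for 99.99% of genes.

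Differences were tested in limma 3.58.1 (R 4.3.3, trended variance) on log2(RPKM + 1), keeping genes averaging 1 RPKM or more, with Benjamini-Hochberg adjustment over all 13864 and a threshold of 0.05. Its power was gauged on simulated libraries of 13864 genes for shHepaCAM against shControl. The share of altered genes that passed was 2% at a 1.2-fold change, 36% at 1.5-fold and 74% at 2-fold. A gene that did not pass may therefore still have changed by 1.2-fold, 1.5-fold or even 2-fold. The simulated spread was shuffled across genes, not kept with the level of each gene. These shares therefore do not give the power for the tubulins themselves. No 2 libraries were alike within sampling noise (lowest chi-square per degree of freedom 3.78).

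The tubulins, lists and alternatives were chosen with earlier results of these data known. Named genes are Hepacam, the 10 tubulins, per companion list up to 4 genes past the threshold or else the 1 with the smallest p, and the 5 genes closest in pattern. Stk16, Tuba1c, Ttc5 and the marker genes were named after their values were seen. Figures used matplotlib 3.10.9 and alignments Biopython 1.88. The coding ends of some genes are not reported here.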

Additional observations from a re-analysis of the deposited data

How the results depend on the processing

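All 10 tubulins kept a change below 0 under every alternative run, except Tubb4a, which ran from -0.14 to 0.01 with 1 library left out and was at 0.00526 without shControl replicate 3. Ttc5 was at 0.0365 without both libraries low in choroid plexus RNA. The 5 calls fell to 1, Tuba4a, with no filter on low values, with no trend, with the replicate block and with log2 Ttr as a covariate, and to 0 without both shControl replicate 1 and shHepaCAM replicate 3; with 1 library left out they ran from 0 to 6. The number of genes called was 169 with no filter, 157 with the replicate block and 104 without both libraries, and ran from 98 to 867 with 1 library left out. Companion genes called were 2 with scaling to the median gene, 7 with a filter at 5 RPKM, 10 with limma-voom on recovered reads, and 1 with no filter, no trend, the replicate block, log2 Ttr or without both libraries; they ran from 1 to 5 with 1 library left out. The cause was not tested. The replicate numbers share only a name: deviations of same-numbered libraries correlated at -0.21, 0.0155 and -0.145, and shControl replicate 1 correlated best with shHepaCAM replicate 3 (0.269). As shares of reads in place of RPKM, the differences in isotype share were -2.64 points for Tuba4a, -3.01 for Tubb2a and -0.93 for Tubb5, by construction weighted by gene length. Removal of a length and GC trend, chosen after seeing the data, gave 6 tubulin calls. Depth limited Tubg1 most, with 559 to 808 reads per library.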
